A study of Homo sapiens with 12 samples.

Results

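The genes described here are 9 transcriptional targets of the tumour suppressor p53, chosen by symbol as the probe sets that carry only CDKN1A, MDM2, BBC3, BAX, GDF15, SESN1, TP53INP1, FAS or ZMAT3. All 9 passed the filter on dim probe sets and were among the 16883 genes tested. They were measured in cytoplasmic RNA from U2OS, a human osteosarcoma line with wild-type p53. The series concerns which RNAs the cytoplasmic capping enzyme recaps. The cells carry K294A, a catalytically inactive form of that enzyme, under doxycycline control, and RNA was depleted of ribosomal RNA and then treated or not in vitro with Xrn1, a 5′ exonuclease that degrades RNA whose 5′ end carries a monophosphate. The 12 exon arrays form 4 groups of 3: induced Xrn1 (doxycycline at 1 ug/ml for 24 h, RNA treated with Xrn1), induced untreated, uninduced Xrn1 and uninduced untreated. All groups carry the K294A transgene and differ only in doxycycline and Xrn1. The sample titles call the arrays biological replicates. The labels do not say whether the line is 1 clone or whether these replicates are separate cultures, so how much of the spread between arrays is technical is not known. Each gene-level p-value uses 1 spread pooled over all genes, not the spread of that gene's own arrays.

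p53 is a transcription factor that damage and other stress stabilise. It binds response elements made of a pair of 10-base motifs and switches on genes for cell cycle arrest (CDKN1A), apoptosis (BBC3, BAX, FAS, TP53INP1), antioxidant defence and growth control (SESN1), a secreted stress hormone (GDF15) and RNA stability (ZMAT3). MDM2, itself a target, marks p53 for degradation and closes a feedback loop. Xrn1 acts on RNA after extraction, so the comparisons concern which transcripts the enzyme removes in the tube, whereas induction is a treatment of the living cells.

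Gene levels are means of log2 values over the kept probe sets of a gene, and a change is a difference of log2 levels. Genes above a level of 6 numbered 144 to 298 per array in the induced Xrn1 group, 327 to 823 in the induced untreated group, 110 to 151 in the uninduced Xrn1 group and 760 to 1114 in the uninduced untreated group. Xrn1-treated arrays therefore held fewer bright genes than untreated ones, although normalization gave all arrays nearly the same median. The median change of all genes was 0.10 with Xrn1 in induced cells and -0.27 in uninduced cells. Centring the arrays on the median gene moved these medians to -0.00 and 0.09, and cyclic loess to 0.01 and 0.07. Some arrays stood apart from their groups. Over all genes, replicate 3 of the induced untreated group was more like uninduced untreated replicates 3 (r = 0.979) and 1 (0.952) than like replicates 1 (0.870) and 2 (0.835) of its own group. Induced untreated replicate 2 was also slightly more like uninduced untreated replicate 1 (0.894) than like the arrays of its own group (0.888 and 0.835). Uninduced Xrn1 replicate 2 correlated at 0.711 and 0.847 with the other arrays of its group, and uninduced untreated replicate 2 at 0.837 and 0.898. Of 9 bone and mesenchymal markers, COL1A1 was highest in uninduced untreated cells at 8.85 and ALPL, alkaline phosphatase, lowest at 2.29.

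The promoters of some of these genes hold matches to the p53 response element, shown here because MDM2 is the gene on which the Xrn1 results turn most. RefSeq windows (GRCh38.p14), running from 250 bases before to 50 after each annotated start, were found for 8 of the 9 genes and searched on both strands for the p53 consensus, without a spacer and with at most 3 mismatches of 20. Such a match was present in 5.2% of 35116 windows. Among the 8 genes, 4 had one: MDM2 in 2 of 4 windows, GDF15 in 1 of 1, SESN1 in 1 of 3 and FAS in 1 of 3. The 5.2% is a share of windows, so it is not a background for the count of genes. The 2 MDM2 windows overlap and hold the same 2 matches. The MDM2 matches lie at its internal promoter, with 2 mismatches (chr12:68808923-68808942) and 3 mismatches (chr12:68808961-68808980). The 250 bases before that start (chr12:68808767-68809016, plus strand), with both matches in capitals, are followed by the 20-base matches of SESN1 (chr6:109009018-109009037, minus strand, 3 mismatches) and FAS (chr10:88991309-88991328, plus strand, 2 mismatches).
MDM2 internal promoter: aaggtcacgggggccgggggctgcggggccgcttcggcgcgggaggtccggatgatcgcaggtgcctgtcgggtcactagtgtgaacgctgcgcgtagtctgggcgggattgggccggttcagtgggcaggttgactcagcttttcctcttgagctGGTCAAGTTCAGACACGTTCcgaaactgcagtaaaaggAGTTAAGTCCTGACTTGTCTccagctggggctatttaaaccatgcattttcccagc
SESN1 match: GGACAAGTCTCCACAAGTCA
FAS match: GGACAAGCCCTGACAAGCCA
A match is a description of these letters and not evidence of binding.

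MDM2 was lower with Xrn1 in both states of the cells. MDM2, a ubiquitin ligase, is encoded at chr12:68808172-68850686. Its level was 3.80, 3.49 and 3.50 in induced Xrn1, against 4.37, 5.21 and 5.74 in induced untreated. In uninduced cells it was 3.60, 3.12 and 3.84 with Xrn1, against 6.15, 6.11 and 5.98 untreated. Every Xrn1 array lay below every untreated array, and the uninduced untreated arrays were the highest and the closest to one another. The change was -1.51 in induced cells (95% confidence interval -2.18 to -0.84, limma adjusted p = 0.000146) and -2.56 in uninduced cells (-3.23 to -1.89, adjusted p = 2.23e-12), or 2.85-fold and 5.91-fold lower.

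**Figure D1:**
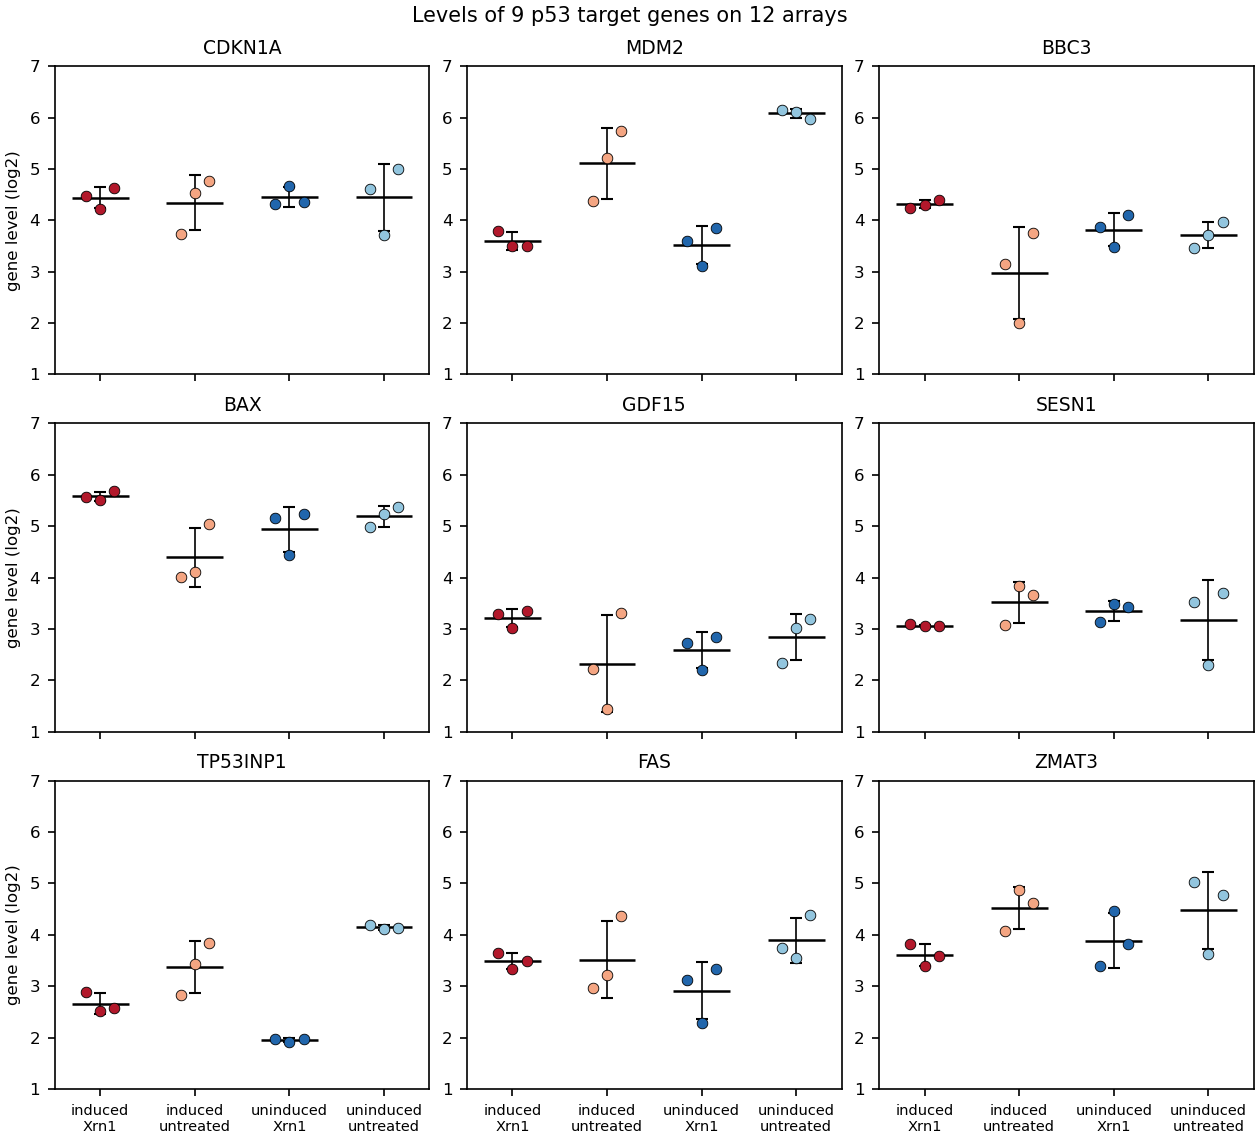
Level (log2, vertical axis) of each of the 9 genes on each array, by group, with replicates 1 to 3 from left to right in a group; the long line is the mean and the bar the SD (n = 3). MDM2 and TP53INP1 lay lowest in the uninduced Xrn1 group, with means of 3.52 and 1.95, and highest in the uninduced untreated group, with means of 6.08 and 4.15.

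The MDM2 change was uneven along its 21 kept probe sets of 25. In uninduced cells 16 passed the probe set test as lower, none as higher, and changes ran from -5.23 to 0.61. In induced cells 13 were lower and 2 higher, from -4.50 to 1.82. Of all 705699 probe sets tested, 7.54% were higher and 10.8% lower in uninduced cells, and 6.89% and 5.52% in induced cells. When the probe sets were ordered by their ID number, a split chosen after the values were seen, the 5 lowest numbers changed by -1.33 to 0.61 in uninduced cells, where none passed, and by 0.59 to 1.82 in induced cells. The other 16 changed by -5.23 to -1.80 in uninduced cells, where all passed as lower, and by -4.50 to 0.02 in induced cells. The positions of the probe sets in the transcript were not used here.

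TP53INP1, a nuclear and autophagy-linked protein that promotes apoptosis, lies on chromosome 8 and fell with Xrn1 in uninduced cells. Its level there was 1.98, 1.91 and 1.97 with Xrn1, against 4.20, 4.11 and 4.13 untreated. The Xrn1 arrays were below 2.04, the median brightness of all probe sets, and the groups were wide apart. The change was -2.20 (-2.86 to -1.53, limma adjusted p = 2.34e-09), or 4.58-fold lower in the measured levels, and 5 of its 6 kept probe sets passed as lower. No detection call was used here. With levels under 2.04 raised to it, a floor set after the values were seen, TP53INP1 was 4.32-fold lower. That is a point value and not a lower bound, and 2.04 is not a measured detection limit. In induced cells the level was 2.89, 2.53 and 2.57 with Xrn1, against 2.83, 3.44 and 3.83 untreated. These groups overlapped at untreated replicate 1, and the change of -0.70 (-1.37 to -0.04) had an adjusted p of 0.0857. It passed in 6 of 22 alternatives: after centring, after cyclic loess, with the median of probe sets, without induced untreated replicate 1, without uninduced untreated replicate 2, and without both arrays numbered uninduced 2.

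FAS, the death receptor at chr10:88964050-89017059, stood at 3.12, 2.28 and 3.33 in uninduced Xrn1, against 3.75, 3.55 and 4.38 in uninduced untreated. The groups did not overlap, and the change was -0.98 (-1.65 to -0.31, adjusted p = 0.0138), or 1.97-fold lower. This call was lost without uninduced Xrn1 replicate 2, the array that stood apart (-0.66), without uninduced untreated replicate 3 (-0.74), after centring (-0.62) or cyclic loess (-0.60), with the gene's own spread, with the sample number as a replicate block (adjusted p = 0.0561) and without both arrays numbered uninduced 2. In induced cells FAS was 3.66, 3.34 and 3.49 with Xrn1, against 2.97, 3.22 and 4.37 untreated. The Xrn1 arrays fell inside the untreated range, with a change of -0.03 (-0.69 to 0.64, adjusted p = 0.965). Its 9 kept probe sets of 15 changed unevenly: on the average over both states, 1 was higher and 3 lower, from -2.69 to 1.51, where 11.7% of all probe sets were higher and 11.4% lower.

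The BCL2-family genes BBC3 and BAX rose with Xrn1 in induced cells. BBC3, which encodes the pro-apoptotic protein PUMA at chr19:47220824-47232860, stood at 4.25, 4.30 and 4.40 in induced Xrn1, against 3.16, 1.99 and 3.76 in induced untreated. BAX, which permeabilises the mitochondrial outer membrane and is encoded at chr19:48954875-48961798, stood at 5.56, 5.51 and 5.68 in induced Xrn1, against 4.02, 4.11 and 5.05 in induced untreated. Neither pair of groups overlapped, the Xrn1 arrays were close together, and the untreated arrays spread widely with replicate 3 the highest. BBC3 rose by 1.35 (0.68 to 2.02, adjusted p = 0.000781), or 2.55-fold, and BAX by 1.19 (0.52 to 1.86, adjusted p = 0.00312), or 2.29-fold. The BBC3 call was lost without induced untreated replicate 2 (0.86), and both calls were lost with each gene's own spread.

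In uninduced cells BBC3 was 3.86, 3.47 and 4.11 with Xrn1, against 3.45, 3.72 and 3.97 untreated, and BAX was 5.16, 4.43 and 5.24, against 4.98, 5.23 and 5.37. Both pairs of groups overlapped. The changes were 0.10 for BBC3 (-0.57 to 0.77, adjusted p = 0.853) and -0.25 for BAX (-0.92 to 0.42, adjusted p = 0.602). After cyclic loess BAX was called higher in uninduced cells too, at 0.95 (adjusted p = 0.00683). All 9 probe sets of BBC3 and all 16 of BAX were above 0 in induced cells, with 4 of each passing as higher. In uninduced cells BAX had 8 probe sets above 0 and 8 below, with 1 higher and 4 lower, from -2.72 to 1.91.

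GDF15, a secreted stress cytokine of the TGF-beta superfamily, is encoded at chr19:18386158-18389176. It stood at 3.29, 3.02 and 3.36 in induced Xrn1, against 2.22, 1.44 and 3.31 in induced untreated. The groups overlapped at untreated replicate 3, and replicate 2 was the lowest of all 12 arrays. GDF15 rose by 0.89 (0.23 to 1.56, adjusted p = 0.0269), or 1.86-fold, but the call was lost without induced untreated replicate 2 (0.45) or 1, or without any 1 of the induced Xrn1 arrays. It was also lost with the gene's own spread and after cyclic loess. All 7 kept probe sets were above 0, and no single one passed. In uninduced cells GDF15 was 2.73, 2.19 and 2.85 with Xrn1, against 2.34, 3.02 and 3.18 untreated, a change of -0.26 (-0.93 to 0.41, adjusted p = 0.592) between overlapping groups.

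The rise of BBC3, BAX and GDF15 in induced cells came with higher readings for genes of other cell types. Of 13 such markers tested, 5 rose with Xrn1 in induced cells and none fell, with a median change of 0.59, where 21.6% of all genes rose, 17.8% fell and the median was 0.10. Their summed level was 44.6 to 46.3 on induced Xrn1 arrays and 35.7 to 44.2 on induced untreated arrays. In uninduced cells it was 37.6 to 43.9 with Xrn1 and 38.8 to 44.6 untreated. Their part in the result was not tested.

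ZMAT3, a zinc finger protein that binds RNA and is encoded at chr3:179017223-179072513, stood at 3.83, 3.40 and 3.58 in induced Xrn1, against 4.08, 4.87 and 4.62 in induced untreated. The groups did not overlap, and ZMAT3 fell by 0.92 on the log2 scale (interval -1.59 to -0.25, adjusted p = 0.0226), or 1.89-fold. That call was lost without replicate 2 or 3 of either induced group, with the median of probe sets and with the gene's own spread. In uninduced cells it was 3.39, 4.46 and 3.82 with Xrn1, against 5.03, 3.63 and 4.78 untreated. Replicate 2 was the highest Xrn1 array and the lowest untreated array there, so the groups overlapped, and the change was -0.59 (-1.26 to 0.08, adjusted p = 0.157). Without uninduced untreated replicate 2 the change was -1.02 and passed, as it did without both arrays numbered uninduced 2 (-1.30). Of its 14 probe sets, 4 were lower in induced cells and 2 in uninduced cells, and none was higher.

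CDKN1A, which encodes the cyclin-dependent kinase inhibitor p21 at chr6:36676463-36687332, stood at 4.48, 4.22 and 4.63 in induced Xrn1, against 3.73, 4.54 and 4.76 in induced untreated. In uninduced cells it was 4.32, 4.67 and 4.35 with Xrn1, against 4.62, 3.72 and 5.00 untreated. The groups overlapped in both states. The changes were 0.10 (-0.57 to 0.77, adjusted p = 0.856) in induced cells and 0.00 (-0.67 to 0.67, adjusted p = 0.995) in uninduced cells, and the intervals give the changes that these data allow. After cyclic loess CDKN1A was called higher in uninduced cells, at 0.92 (adjusted p = 0.00545), which lies outside the interval above. Its 9 kept probe sets did not agree: on the average over both states 2 were higher, 2 were lower, and the range was -1.96 to 1.53. The lowest of them passed as lower in both states, at -1.77 in induced and -2.16 in uninduced cells.

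SESN1, a sestrin that restrains mTORC1, is encoded at chr6:108984309-109094846. It stood at 3.09, 3.06 and 3.05 in induced Xrn1, against 3.08, 3.83 and 3.65 in induced untreated. In uninduced cells it was 3.13, 3.48 and 3.43 with Xrn1, against 3.53, 2.29 and 3.71 untreated. The induced Xrn1 arrays were almost equal, the uninduced untreated ones held both the lowest value and one of the highest, and the groups overlapped in both states. The changes were -0.45 (-1.12 to 0.22, adjusted p = 0.299) and 0.17 (-0.50 to 0.84, adjusted p = 0.741), and 2 of its 12 kept probe sets were lower in induced cells. Without uninduced untreated replicate 2, which held the lowest value of both SESN1 and CDKN1A, neither gene passed in uninduced cells.

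**Figure D2:**
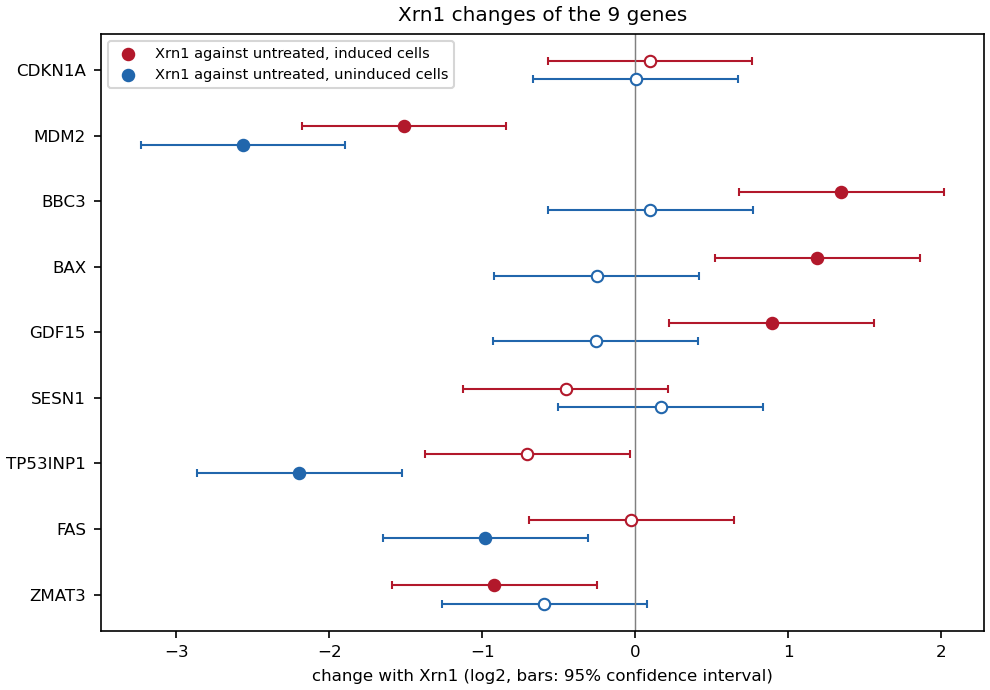
Change with Xrn1 (log2, horizontal axis) of each gene in induced cells (red) and uninduced cells (blue), with bars for the 95% confidence interval; filled points passed the limma test over all genes and open points did not. MDM2 was lower in both states, at -1.51 and -2.56, and BBC3 and BAX passed in induced cells, at 1.35 and 1.19.

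Over the 9 genes, 3 rose and 2 fell with Xrn1 in induced cells, where 21.6% of all genes tested rose and 17.8% fell. The groups of 4 of them (MDM2, BBC3, BAX and ZMAT3) did not overlap, as was so for 50.9% of all genes. In uninduced cells 3 of the 9 fell and none rose, also at an unadjusted p under 0.05, where 31.8% of all genes fell and 7.24% rose. The same 3 genes had groups that did not overlap, against 44.8% of all genes. On the average over both states 1 rose (BBC3, at 0.72, adjusted p = 0.00901) and 3 fell (MDM2, TP53INP1 and ZMAT3), where 14.2% of all genes rose and 29.8% fell. These few genes give shares of the same order as the backgrounds. MDM2 and TP53INP1 changed by -2.04 and -1.45 on the average, against a median of 0.05 over all genes. The balance of rises and falls depended on the scaling. After cyclic loess the counts were 2 higher and 3 lower in induced cells, 2 and 2 in uninduced cells, and 3 and 2 on the average. Shares of all genes after cyclic loess are not given here, so these counts have no background beside them.

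**Figure D3:**
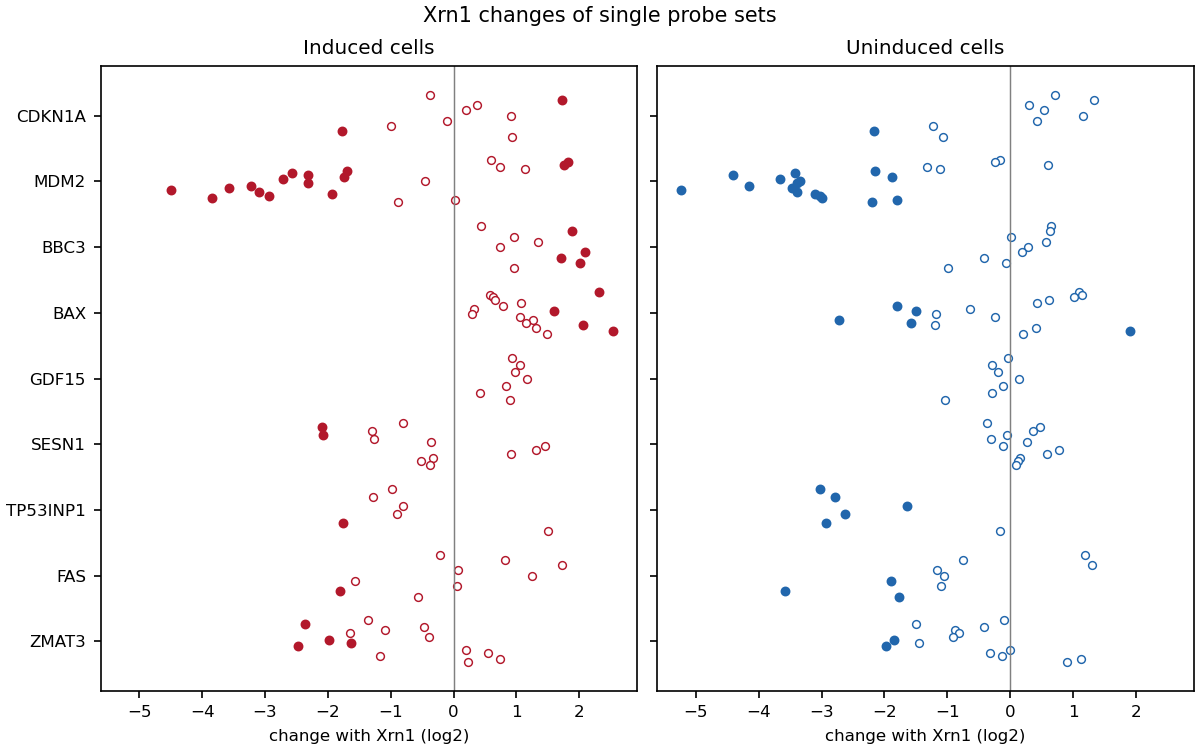
Change with Xrn1 (log2, horizontal axis) of the 103 kept probe sets of the 9 genes, in order of ID number from top to bottom within a gene, in induced cells (left) and uninduced cells (right); filled points passed the test over all probe sets. The uppermost MDM2 points lie to the right of the rest, and CDKN1A and FAS have probe sets on both sides of 0.

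Induction of K294A without Xrn1 gave no call among the 9 genes with limma, where 0.0415% of all genes passed. At an unadjusted p under 0.05, 4 were lower and none higher, against 27.2% and 3.56% of all genes. Arrays measure pooled cells, so between induced and uninduced cells fewer cells with an RNA and less of it per cell cannot be told apart. From the levels given above, MDM2 differed by -0.97 (-1.64 to -0.30, adjusted p = 0.11) and TP53INP1 by -0.78 (-1.45 to -0.11, adjusted p = 0.125), and the induced and uninduced untreated arrays of both did not overlap, as was so for 23.2% of all genes. BAX differed by -0.80 (adjusted p = 0.121) and BBC3 by -0.74 (adjusted p = 0.133), with overlap, and the other 5 genes by -0.52 to 0.34. Without induced untreated replicate 3, the array that stood closer to the uninduced group, 5 genes fell: MDM2 by 1.29, BBC3 by 1.14, BAX by 1.13, and GDF15 and TP53INP1 by 1.01 each on the log2 scale. In that fit 37.9% of all genes fell. The array was singled out for its likeness to the uninduced arrays, so leaving it out enlarges the difference by choice. No other alternative gave a call for any of these 5 genes, and no effect of induction is read from that fit.

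With Xrn1, induction again gave no call among the 9 genes, where 0.0592% of all genes passed. At an unadjusted p under 0.05, 1 was higher and none lower, against 8.66% and 0.426% of all genes. The 1 higher gene was TP53INP1, at 0.71 (0.04 to 1.38, adjusted p = 0.534). The other 8 differed by -0.29 to 0.64. The induced and uninduced Xrn1 arrays of BAX, BBC3, FAS, GDF15, SESN1 and TP53INP1 did not overlap. SESN1 was lower in induced cells and the others were higher. The share of all genes without overlap is not given for this comparison, so nothing is read from it.

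The Xrn1 change differed between induced and uninduced cells for 3 of the 9 genes, all towards higher values in induced cells, as for 20.6% of all genes. The difference was 1.49 for TP53INP1 (0.54 to 2.44, adjusted p = 0.0271; 1.40 with the floor of 2.04), 1.44 for BAX (0.50 to 2.39, adjusted p = 0.0298) and 1.25 for BBC3 (0.30 to 2.20, adjusted p = 0.0474). It was 1.15 for GDF15 (adjusted p = 0.0623), 1.05 for MDM2 (adjusted p = 0.0839) and 0.95 for FAS (adjusted p = 0.114). CDKN1A, ZMAT3 and SESN1 had 0.09, -0.33 and -0.62. The median difference of all genes was 0.70, and centring moved it to 0.23 and cyclic loess to 0.15, after which none of the 9 genes passed. None passed either when 1 of these arrays was left out: replicate 1 of either induced group, induced Xrn1 replicate 3, uninduced Xrn1 replicate 2 or uninduced untreated replicate 3.

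The wider p53 pathway was followed in 5 lists of 64 genes, of which 61 were tested and the others are not analysed here. With Xrn1 6 of the 61 rose and 19 fell in induced cells (median -0.28, against 0.10 over all genes), where 21.6% of all genes rose and 17.8% fell. In uninduced cells none rose, also at an unadjusted p under 0.05, and 29 fell (median -0.74, against -0.27), where 7.24% of all genes rose and 31.8% fell. With each gene's own spread in place of the pooled one, 0 rose and 6 fell in induced cells and 0 and 24 in uninduced cells. Cyclic loess gave 8 higher and 22 lower in induced cells and 6 higher and 25 lower in uninduced cells. Shares of all genes with own spreads or cyclic loess are not given, so those counts, here and below, have no background beside them. Induction without Xrn1 gave no call with limma, and 22 were lower at an unadjusted p under 0.05, where 27.2% of all genes were. Without induced untreated replicate 3, 27 of the 61 were called lower, where 37.9% of all genes were. The limit given above for that fit holds here too.

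Of 14 regulators of p53, 13 fell with Xrn1 on the average, 8 in induced cells and 11 in uninduced cells, and none rose in either state. The shares of all genes that fell were 29.8%, 17.8% and 31.8%. With its own spread for each gene, 11, 3 and 9 of the regulators fell. USP7, the deubiquitinase of MDM2 and p53, changed by -1.93 in induced and -2.87 in uninduced cells. PPM1D, the phosphatase WIP1, changed by -1.42 and -2.35, and both genes passed in both states. MDM4, the partner of MDM2, fell in induced cells (-1.07), and its change of -0.39 in uninduced cells did not pass. EP300, an acetyltransferase of p53, fell in uninduced cells (-1.92), with -0.34 in induced cells, which did not pass. CHEK2, a checkpoint kinase, fell in uninduced cells (-0.87), with 0.60 in induced cells, which did not pass. The CHEK2 call was lost in 10 of 22 alternatives, among them centring and leaving out any 1 of 5 uninduced arrays (all but uninduced Xrn1 replicate 1).

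Of 10 arrest targets, 5 fell in each state and none rose, where 17.8% of all genes fell in induced cells and 31.8% in uninduced cells. With own spreads 2 fell in induced and 4 in uninduced cells. PLK2, a polo-like kinase, changed by -2.26 in induced and -2.24 in uninduced cells, PTP4A1, a phosphatase, by -2.13 and -2.17, and TOB1, an antiproliferative protein, by -1.10 and -2.86. E2F7, a transcriptional repressor, fell in uninduced cells (-1.87) and stood at -0.28 in induced cells without passing. Of 8 repair targets, 4 fell in induced and 5 in uninduced cells (1 and 4 with own spreads). RRM2B, a ribonucleotide reductase subunit, changed by -1.68 and -2.72 and PCNA, the sliding clamp, by -1.11 and -1.97. FANCC, of the Fanconi anaemia complex, changed by -2.06 and DDB2, which recognises ultraviolet damage, by -1.20 in uninduced cells, and in induced cells neither passed.

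Of 13 apoptosis targets other than the 9 genes, 3 rose and none fell in induced cells, and none rose and 3 fell in uninduced cells. These shares are near or below the 21.6% of all genes that rose in induced cells and the 31.8% that fell in uninduced cells, and with own spreads no rise passed. Those that rose, named after their values were seen, were the death receptor TNFRSF10A (1.38), PIDD1 of the PIDDosome (1.11) and FDXR, ferredoxin reductase (0.92). Those that fell were APAF1 of the apoptosome (-1.60), the death receptor TNFRSF10B (-1.49) and PMAIP1, the BH3-only protein NOXA (-1.44). Of 17 targets in metabolism, autophagy and feedback, a list that shares PPM1D with the regulators, 3 rose and 3 fell in induced cells and 6 fell in uninduced cells, where 21.6% and 17.8% of all genes rose and fell in induced cells and 31.8% fell in uninduced cells. With own spreads 1 fell in induced and 5 in uninduced cells, and none rose. TIGAR, which lowers glycolytic flux, changed by -0.99 in induced and -2.33 in uninduced cells, and both passed. DRAM1, a lysosomal autophagy protein, fell by 1.84 and SUSD6 by 1.24 on the log2 scale in uninduced cells, and neither passed in induced cells.

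**Figure D4:**
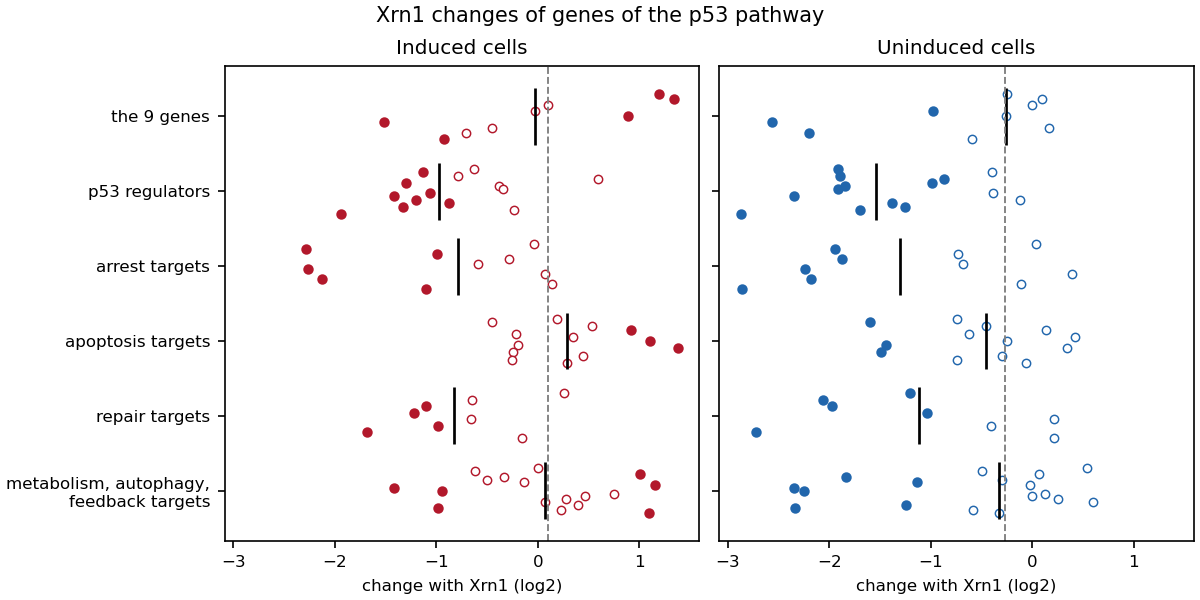
Change with Xrn1 (log2, horizontal axis) of each gene in the 9 and in the 5 pathway lists, in induced cells (left) and uninduced cells (right); filled points passed the test, the short black line is the list's median and the dashed line the median of all genes. The regulators had medians of -0.97 and -1.54, and the apoptosis targets 0.29 and -0.46.

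Across the 12 arrays the gene nearest in pattern to MDM2 was PPFIBP1 (Pearson r = 0.998), then USP12 (0.996). The nearest to TP53INP1 were NSMAF and BFAR (0.993 each), to ZMAT3 KLHDC10 (0.992) and SNRK (0.991), and to BBC3 MAP3K10 (0.995) and RGMA (0.991). BAX followed SNRNP70 (0.986) and GCDH (0.983), GDF15 followed RNF135 (0.983) and CELF6 (0.981), and SESN1 followed AP4B1 (0.979) and FYCO1 (0.975). The best matches were looser for CDKN1A (CUL9 at 0.949 and CSRNP1 at 0.945) and FAS (COG7 at 0.949 and CES3 at 0.948). These correlations are taken over arrays that share the Xrn1 contrast, and 1% of all genes lie above 0.984 for MDM2 and above 0.851 for CDKN1A, so they describe likeness only.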

How the data were processed

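Cytoplasmic RNA of U2OS cells was hybridised to 12 exon arrays, 3 in each of 4 groups taken from the labels. The authors deposited log2 probe set values made by RMA with oligo, per the submitters' processing notes; versions were not given in the sources used here. RMA equalises the arrays, so changes are relative to other genes, and the number of arrays limits the precision. Probe sets with 1 gene symbol and a mean over all arrays above 2.04, the median, were averaged per gene, with at least 3 probe sets per gene (16883 genes). limma 3.58.1 (lmFit and eBayes, R 4.3.3) fitted 4 group means and tested 6 contrasts, with Benjamini-Hochberg adjustment over all genes at 0.05. Its prior pooled the spread to 1 SD of 0.42 for every gene, giving a standard error of 0.34 for a simple contrast. Single probe sets above 2.04 were tested likewise. The scripts were tested on simulated data. The 9 genes and the lists were chosen with earlier results of these data known. Besides the 9, the text names MDM4, PPM1D, from each list the 2 genes with the smallest p for Xrn1 on the average and the 2 for induction without Xrn1, and for each of the 9 the 2 genes of nearest pattern; other names are said to be chosen after their values were seen. Alternatives were the median of probe sets, other brightness filters, centring, cyclic loess, unpooled spread, a trended robust prior, only the groups compared, a replicate block and leaving out arrays. The title of 1 array carries a replicate number at odds with its sample number, which was used instead.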

Additional observations from a re-analysis of the deposited data

Results flagged for a closer look

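The Xrn1 change differed between induced and uninduced cells, by the interaction term of the limma fit, for BBC3 (difference in log2 change, induced minus uninduced, 1.25), BAX (1.44) and TP53INP1 (1.49), and for named genes of the pathway lists. By that term 17 of the 61 pathway genes tested were called higher, where 20.6% of all genes were. These calls are therefore not read as particular to the pathway. Among regulators the difference was 1.46 for CHEK2 and 1.58 for EP300. For arrest targets it was 1.60 for E2F7 and 1.76 for TOB1, and for apoptosis targets 1.24 for PMAIP1 and 1.25 for TNFRSF10B. Repair targets gave 1.47 for DDB2 and 1.42 for FANCC. DRAM1 had 1.50, SUSD6 1.65 and TIGAR 1.35. All 14 differences were positive, as was the median of all genes, 0.70, and that median was 0.23 after centring and 0.15 after cyclic loess. The 14 are listed because they were called. Apart from TIGAR, the pathway genes among them were named for their small p for induction without Xrn1. That comparison uses the same untreated arrays as the interaction, so the shared sign was partly set by the choice and is not separate evidence. All 14 calls were lost with cyclic loess, with each gene's own spread, with the replicate block, without both arrays numbered uninduced 2, and without any 1 of 4 arrays (replicate 1 of either induced group, induced Xrn1 replicate 3 and uninduced Xrn1 replicate 2); 13 were lost after centring. No cause was tested.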

How the results depend on the processing

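MDM2 stayed lower and past the threshold in every alternative run, from -1.88 to -1.19 in induced cells, from -2.73 to -1.57 in uninduced cells and from -2.22 to -1.43 on the average; TP53INP1 did so in uninduced cells (-2.58 to -1.48) and on the average (-1.82 to -0.77). A pair of values changed sign and passed: BAX with Xrn1 in uninduced cells after cyclic loess (0.95) and SESN1 on the average with probe sets above the upper quartile (0.59). With each gene's own spread, 1 of the 9 genes passed for Xrn1 in induced cells (5 otherwise), 2 on the average (4 otherwise) and 0 for the interaction; the interaction gave 1 with the median of probe sets, 5 with no brightness filter, and 0 with the upper-quartile filter, centring, cyclic loess or without both arrays numbered uninduced 2. Leaving out 1 array gave 2 to 6 genes for Xrn1 in induced cells (2 without induced untreated replicate 2, 3 without induced Xrn1 replicate 2 or 3), 2 to 4 in uninduced cells, 3 to 6 on the average, 0 to 5 for induction without Xrn1 (5 without induced untreated replicate 3), 0 for induction with Xrn1, and 0 to 6 for the interaction (6 without induced untreated replicate 3; 0 without replicate 1 of either induced group, induced Xrn1 replicate 3, uninduced Xrn1 replicate 2 or uninduced untreated replicate 3; 1 without replicate 2 of either induced group). The cause was not tested, and these counts have no share of all genes beside them. The BBC3 call in induced cells was lost with its own spread and without induced untreated replicate 2 (0.86), that of BAX with its own spread (adjusted p = 0.0502), that of GDF15 in 10 and that of ZMAT3 in 6 of 22 alternatives, and that of FAS in uninduced cells in 7 of 22, the replicate block among them. The titles give an Xrn1 array the number of an untreated one, but do not say that both came from 1 RNA sample, and the deviations of same-numbered arrays from their group means correlated at -0.71 to 0.13, so the numbers were not used as pairs in the results above; whether they pair the samples is not settled. With the sample number as a replicate block, 0 of the 9 genes passed for the interaction. Over all genes that block gave 6409 calls for Xrn1 in induced cells (6643 without it) and 4908 in uninduced cells (6590). It gave 6172 on the average (7422) and 145 for the interaction (3687). No sample number is shared by induced and uninduced arrays. The induction contrasts were therefore blocked by replicate number, which is a different pairing. Those fits gave 0 calls for induction without Xrn1 (7) and 937 with Xrn1 (10). The block fits also estimated the spread anew, so these counts do not show what pairing alone does. Probe sets near 2.04 lie near background, which limits TP53INP1 with Xrn1 in uninduced cells and the lowest GDF15 and BBC3 values. The limit may reach further, since the 13 markers of other cell types had group medians of 3.00 to 3.50, with CD3E highest at 4.40. Every group mean of GDF15, SESN1, FAS, BBC3 and TP53INP1 lay below 4.40. So did the Xrn1 means of MDM2 (3.60 in induced and 3.52 in uninduced cells) and of ZMAT3 (3.60 and 3.89). The untreated means of MDM2 were higher, at 5.11 and 6.08. In induced untreated arrays CDKN1A (4.35) and BAX (4.39) also lay below 4.40. Whether these genes stood above background was not tested.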
